A study of Homo sapiens with 9 samples.

Results

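Collagen chain genes were followed in HepG2, a human liver carcinoma cell line that keeps many features of hepatocytes and is no model of the matrix-producing stromal cells of the liver. The genes were taken from the deposited table by symbol alone (COL, a number, A and a number), which gave 44 of its 60612 genes. Every library came from the same cell line, and a group was set by what the cells received: 0.1% DMSO (the solvent control), 50 µM PQY09 or 50 µM PQY23_1. PQY09 is named in the series title as Butyrolactone I, a fungal butenolide that is used to inhibit CDK family enzymes, and it calls PQY23_1 a derivative of it. The title gives a search for what these compounds act on as the purpose. Each group had 3 libraries, 9 in all, and neither the exposure time nor whether a compound was given in DMSO is stated in what was used here. No source says that libraries were made from separate cultures, so that p-values measure only the spread between these samples, which may be technical.

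Collagens are secreted proteins in which chains wind around each other into a triple helix. Fibrillar collagens such as types I, II and III form the fibrils of skin, bone and cartilage, type IV forms the network of basement membranes, and fibril-associated collagens such as types IX and XVI decorate fibril surfaces. Chains are hydroxylated and glycosylated in the endoplasmic reticulum, folded with the help of a dedicated chaperone, trimmed by proteases after secretion and crosslinked by lysyl oxidases. In the liver most fibrillar collagen is made by stellate cells and fibroblasts, while type XVIII collagen is made by hepatocytes and is the source of the fragment endostatin.

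Promoter sequence is shown for COL7A1 and COL9A2, which passed the test in at least 1 comparison below and whose RefSeq windows (GRCh38.p14) hold bases upstream of the annotated gene. The COL7A1 window runs from chr3:48595330-48595579 on the minus strand and ends at the RefSeq start site. The COL9A2 window is the 148 bases at chr1:40317389-40317536 on the minus strand, which end 102 bases before the RefSeq start site. Capitals mark matches, on either strand, to the GC box GGGCGG, the TATA box TATAAA, the CCAAT box, the AP-1 element TGANTCA or the SOX element ACAAAG.
COL7A1: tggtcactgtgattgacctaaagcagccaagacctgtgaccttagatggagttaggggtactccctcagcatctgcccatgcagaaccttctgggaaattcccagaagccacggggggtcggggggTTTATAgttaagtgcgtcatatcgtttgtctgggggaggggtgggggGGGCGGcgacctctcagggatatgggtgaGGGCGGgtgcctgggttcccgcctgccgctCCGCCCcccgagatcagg
COL9A2: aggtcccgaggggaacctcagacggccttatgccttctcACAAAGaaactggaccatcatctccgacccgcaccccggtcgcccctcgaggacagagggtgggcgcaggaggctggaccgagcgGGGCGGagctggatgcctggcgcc

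The COL7A1 sequence held 3 GC box matches and 1 TATA box match, and the COL9A2 sequence held 1 GC box match and 1 SOX element match. Over the full 250 bases before its RefSeq start site, COL9A2 had 3 GC box matches and 1 SOX element match. Over the 250 bases before the start site in all 35116 RefSeq windows, GGGCGG was present in 42.6%, the CCAAT box in 32%, the SOX element ACAAAG in 13.7%, the TATA box in 10.7% and the AP-1 element in 6.57%. Of the 44 collagen genes, 32 had a window, and the 44 windows of these 32 genes held the GC box in 24, the CCAAT box in 12, the TATA box in 8, the SOX element in 6 and the AP-1 element in 1. These matches describe letters only and name no binding site. COL2A1, COL16A1 and COL6A1, which also passed the test, are named without sequence.

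HepG2 libraries carried RNA of 11 collagen chains at a mean of at least 1 FPKM (the authors' deposited level, in fragments for a given gene length and depth) in at least 1 group. That threshold was reached by 11722 of all genes. The leading chains were COL9A3, a chain of the fibril-associated type IX collagen, and COL18A1, the type XVIII chain that carries endostatin. COL9A3 lay at 22.0 ± 1.10 FPKM (SD, n = 3) in DMSO and COL18A1 at 19.0 ± 0.837 FPKM (SD, n = 3). COL9A2, a second type IX chain, and COL27A1, a fibrillar chain made in cartilage, were level with each other in DMSO, at 8.15 ± 0.502 and 8.10 ± 0.570 FPKM (SD, n = 3). COL26A1, an extracellular matrix collagen, followed at 6.29 ± 0.732 FPKM (SD, n = 3). These 5 genes held 84.8% of the summed FPKM of all collagen genes over the 9 libraries, and COL9A3 alone held 30.0%.

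The remaining 6 expressed chains lay lower, at group means of 0.734 to 3.93 FPKM. COL2A1, the only chain of type II collagen, the main collagen of cartilage, had 2.57 ± 0.0920 FPKM (SD, n = 3) in DMSO, and COL16A1, a fibril-associated chain, had 2.52 ± 0.0971 FPKM (SD, n = 3), less than 1 SD apart. COL4A5, a type IV chain of specialized basement membranes, had 2.24 ± 0.0546 FPKM and COL6A1, a chain of the beaded filaments of type VI collagen, had 1.18 ± 0.0514 FPKM in DMSO (SD, n = 3). COL7A1, the chain of the anchoring fibrils of the skin, reached 1 FPKM only under the compounds (0.867 in DMSO, 1.16 under PQY09 and 1.51 under PQY23_1), and COL4A6, a second type IV chain, reached it only under PQY09 (1.02 FPKM, against 0.915 in DMSO and 0.734 under PQY23_1). COL4A6 was the member just inside the threshold by its highest group mean, and COL5A2, a fibrillar chain, was the member just outside it at 0.266 FPKM.

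**Figure D1:**
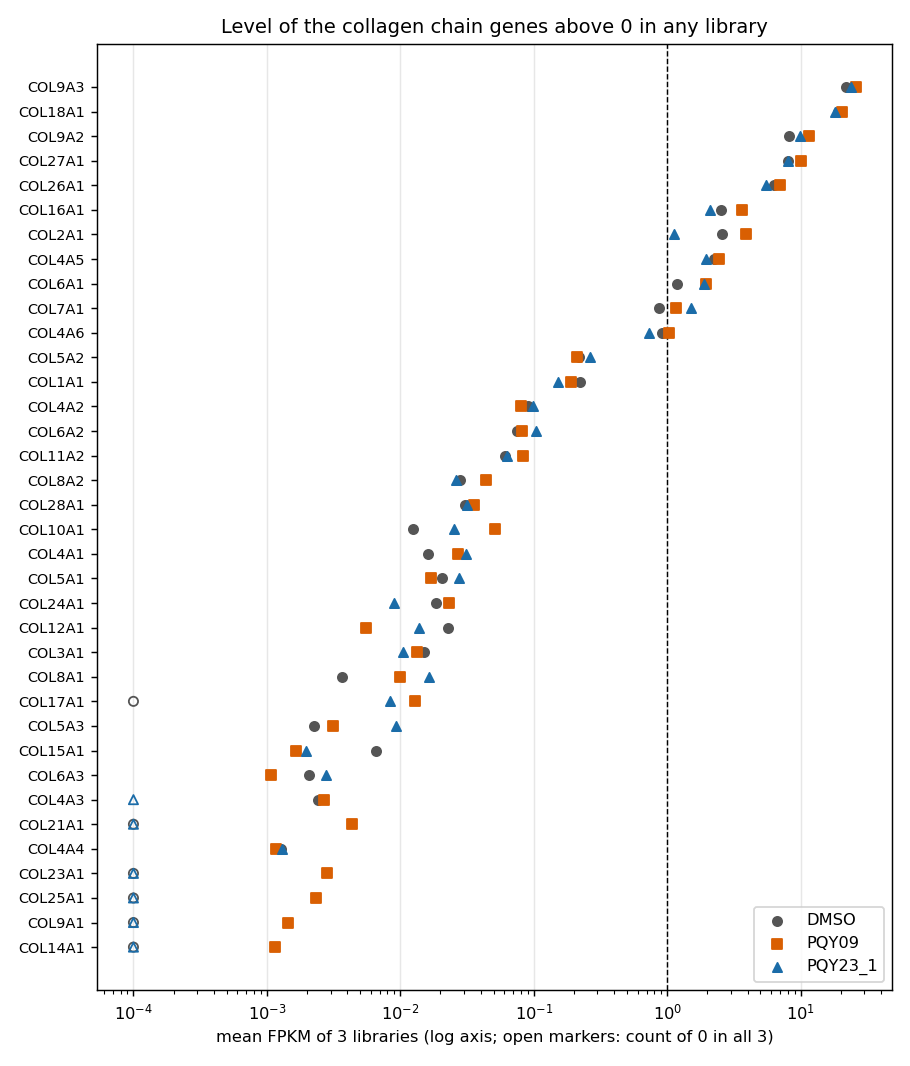
Mean FPKM (log axis) of the 36 collagen chain genes with a count above 0 in any library, by group (n = 3 libraries each; circles DMSO, squares PQY09, triangles PQY23_1; open markers stand for a count of 0 in all 3 libraries; the dashed line is 1 FPKM). The 11 expressed genes sit to the right of a gap between COL4A6 at 1.02 FPKM and COL5A2 at 0.266 FPKM, taking the highest group mean of each, and COL2A1 has the widest spacing between the 3 group means among them.

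The other 33 members were low or not detected. COL1A2, the partner chain of COL1A1 in type I collagen, was at a count of 0 in all 9 libraries, as were COL6A5, COL6A6, COL11A1, COL13A1, COL19A1, COL20A1 and COL22A1. A count of 0 over the 9 libraries allows a level of up to 0.0137 CPM (counts scaled to library size), at 3 fragments of 4 counts each. COL1A1 and COL3A1, the leading fibrillar chains of stromal cells, lay at 0.223 ± 0.0442 and 0.0151 ± 0.00664 FPKM in DMSO (SD, n = 3). In total 36 members had a count above 0 in some library, 21 of them in all 9, and 25 to 30 in any single library. The test described below was run on 25 members, which are the 11 expressed genes and 14 with a highest group mean between 0.0151 and 0.266 FPKM. The 19 not tested were the 8 without any count and 11 whose highest count was 4 to 19.

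By structural class, expressed genes numbered 3 of 10 fibril-associated chains, 2 of 11 fibrillar chains, 2 of 6 type IV chains, 1 of 5 type VI chains, 1 of 2 multiplexins and 2 of 3 chains outside these classes. None of the 3 short-chain network collagens and none of the 4 transmembrane collagens were expressed by this threshold. COL9A1, the remaining type IX chain, had 5 counts in 1 library and none elsewhere. COL4A5 and COL4A6 start 340 bases apart on opposite strands of chromosome X. The ubiquitous type IV pair COL4A1 and COL4A2 also lie on opposite strands, of chromosome 13, and overlap at their starts. That pair had 0.0161 ± 0.0136 and 0.0908 ± 0.0209 FPKM in DMSO (SD, n = 3). Of the type VI chains, COL6A2 varied between 13 and 98 counts across the DMSO libraries alone and COL6A3 had at most 12 counts in any library.

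Depth was similar across libraries, and markers of other cell types were few. Total counts ran from 85050531 to 107538450 per library. All 8 hepatocyte markers and both fetal liver markers were above 1 FPKM. Of 10 stellate cell and fibroblast markers 1 (ACTA2) reached 1 FPKM in any group, LRAT and FAP were at 0 in every library, and the summed level was 15.3 to 17.6 FPKM in DMSO, 17.5 to 18.2 under PQY09 and 15.3 to 17.3 under PQY23_1. None of the 5 endothelial markers reached 1 FPKM (KDR at 0), and 2 of the 3 leukocyte markers did (CD68 and CD14). Of 7 chondrocyte markers 2 reached 1 FPKM (MATN3 and SNORC), while ACAN, HAPLN1 and CNMD were at 0 in all 9 libraries. Mitochondrial genes took 13.4% ± 0.742 of counts in DMSO, 13.3% ± 1.11 under PQY09 and 15.8% ± 1.10 under PQY23_1 (SD, n = 3). Libraries of bulk RNA do not separate a lower number of cells of one kind from less RNA per cell.

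PQY09 was compared with DMSO to see which chains respond to Butyrolactone I. COL2A1, COL16A1, COL9A2 and COL6A1 rose, by 1.40 to 1.63-fold, and no collagen gene was called lower. The 4 calls among 25 tested members, all of them among the 11 expressed, stand beside 2.85% of all 20157 genes called, 1.78% called higher and 1.07% called lower, and beside 4.4% of tested genes with at least 1 FPKM in any group. Calls rest on edgeR's quasi-likelihood F test on all 9 libraries with Benjamini-Hochberg adjustment over all genes tested, at an adjusted p below 0.05, and this test gives every adjusted p in the text unless another is named. Values by library are CPM.

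COL2A1 was at 19.9, 20.9 and 20.2 CPM in the DMSO libraries and at 30.4, 31.1 and 30.3 CPM under PQY09. All 3 PQY09 libraries lay above all DMSO libraries, and the spread within each group was small. The log2 fold change was 0.59 ± 0.07 (SE; 1.504-fold, adjusted p = 0.0041). COL2A1 lies at chr12:47972967-48004554 on the minus strand (hg38, as in the file for this and the coordinates below).

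COL16A1 and COL9A2, chains of fibril-associated collagens that coat fibrils, rose by amounts close to that of COL2A1. COL16A1 (chr1:31652263-31704319, minus strand) was at 28.1, 28.1 and 26.7 CPM in DMSO and at 39.8, 42.3 and 36.2 CPM under PQY09, a log2 fold change of 0.51 ± 0.07 (SE; 1.43-fold, adjusted p = 0.0081). COL9A2 (chr1:40300489-40317388, minus strand) was at 38.1, 40.6 and 43.4 CPM in DMSO and at 56.8, 55.1 and 59.3 CPM under PQY09, a log2 fold change of 0.49 ± 0.07 (SE; 1.40-fold, adjusted p = 0.0081). In both genes every PQY09 library was above every DMSO library.

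COL6A1, a chain of type VI collagen, showed the highest fold of the 4. It lies at chr21:45981769-46005050 on the plus strand and was at 7.83, 7.10 and 7.39 CPM in DMSO and at 12.4, 11.9 and 12.2 CPM under PQY09. The groups did not overlap, and the log2 fold change was 0.71 ± 0.12 (SE; 1.63-fold, adjusted p = 0.0195). The call was lost when any single DMSO or PQY09 library was left out, with adjusted p-values up to 0.0891, although the log2 fold change stayed between 0.68 and 0.75 over the 9 leave-outs.

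The other 7 expressed chains did not pass the test under PQY09. Over the 25 tested members 19 had a value above 0 and the median was 0.23, against 0.0032 over all genes tested. COL7A1 was at 10.5, 12.1 and 11.6 CPM in DMSO and at 14.98, 15.6 and 14.5 CPM under PQY09 (log2 fold change 0.40 ± 0.09, adjusted p = 0.0683). COL9A3 was at 120.1, 126 and 134 CPM in DMSO and at 153, 138 and 153 CPM under PQY09 (0.23 ± 0.06, adjusted p = 0.11). COL27A1 was at 127, 143 and 133 CPM in DMSO and at 166, 169.6 and 159 CPM under PQY09 (0.29 ± 0.09, adjusted p = 0.152). In these 3 genes the groups did not overlap although the test was missed. COL27A1 passed it (adjusted p = 0.0458) when PQY23_1 replicate 1 was left out, and the other leave-outs gave up to 0.348. Groups did not overlap for 9 of the 25 tested members, beside 24.4% of all genes tested. Among these 9, COL12A1, which is below 1 FPKM, was lower under PQY09 (log2 fold change -2.02 ± 1.12, SE, adjusted p = 0.452).

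The remaining expressed chains had smaller differences. COL18A1 was at 190.4, 196 and 184 CPM in DMSO and at 209, 197 and 197 CPM under PQY09, a log2 fold change of 0.08 ± 0.05 (SE). Its groups also did not overlap, by a narrow margin (highest DMSO library 196.3 CPM, lowest PQY09 library 196.7 CPM). COL26A1 (0.13 ± 0.13), COL4A6 (0.14 ± 0.14) and COL4A5 (0.10 ± 0.13) had standard errors close to or above their log2 fold changes, and their groups overlapped. Counts of COL18A1 can hold reads of SLC19A1, a folate transporter gene that overlaps it by 20149 bases on the opposite strand, since the strand setting is not known here. COL9A3 overlaps TCFL5 by 155 bases, also on the opposite strand.

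**Figure D2:**
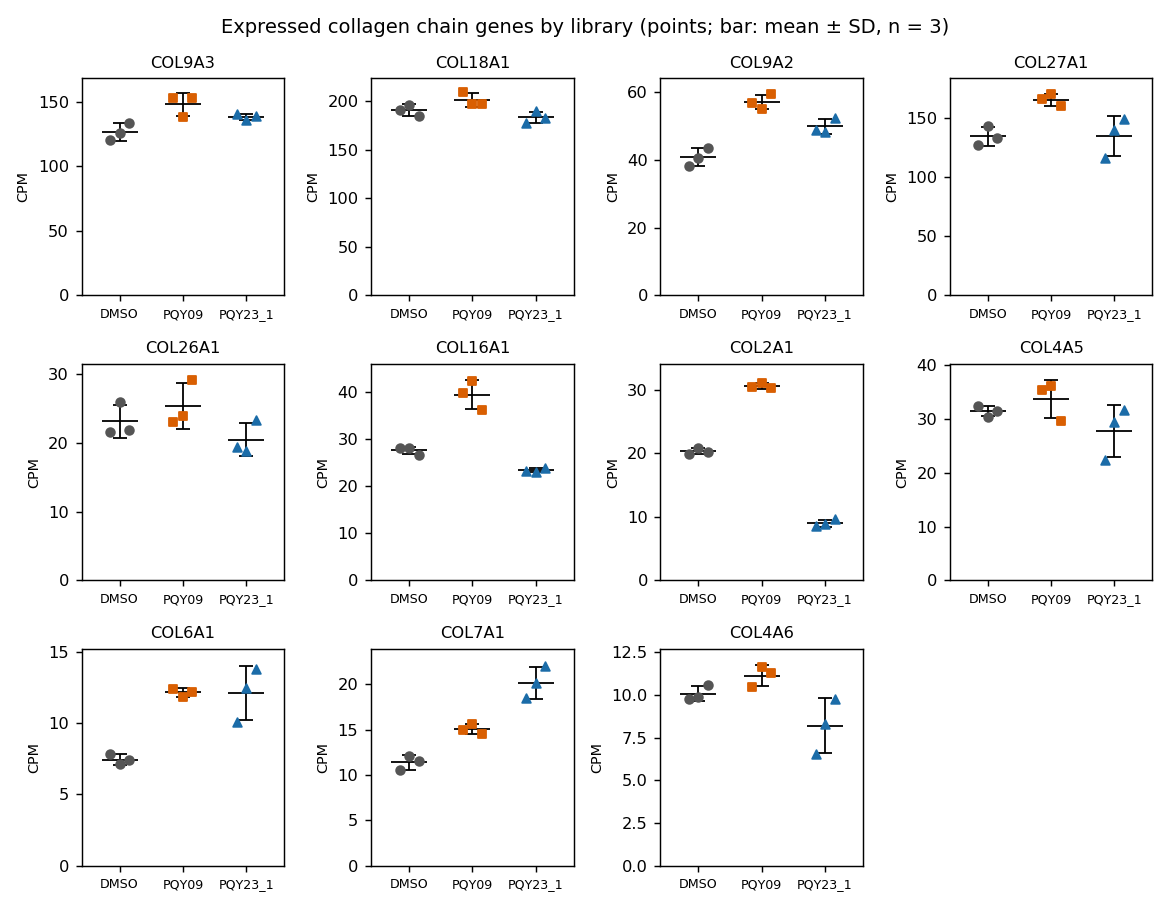
CPM of the 11 expressed collagen chain genes in each of the 9 libraries (points; circles DMSO, squares PQY09, triangles PQY23_1; bars are the mean ± SD of 3 libraries, and each axis starts at 0). COL2A1 forms 3 separate bands, at 19.9 to 20.9 CPM in DMSO, 30.3 to 31.1 CPM under PQY09 and 8.50 to 9.63 CPM under PQY23_1.

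PQY23_1 was compared with the same DMSO libraries, so that both comparisons with DMSO share their controls. COL2A1 fell, and COL7A1 and COL6A1 rose. These 3 calls among 25 tested members (2 higher, 1 lower) stand beside 2.55% of all genes tested called, 1.51% called higher and 1.04% called lower, and beside 3.98% of tested genes with at least 1 FPKM in any group. The median log2 fold change was 0.07 over the 25, against 0.0074 over all genes tested, and 14 of the 25 were above 0.

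COL2A1 was at 8.50, 8.94 and 9.63 CPM under PQY23_1, against 19.9, 20.9 and 20.2 CPM in DMSO. No library of one group came near the other group. The log2 fold change was -1.17 ± 0.07 (SE; 2.25-fold lower, adjusted p = 0.000352), and the gene ranked 3 by p among all 20157 genes tested. Its level per length was 1.12 ± 0.0721 FPKM (SD, n = 3), which was just above the threshold for expression.

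COL7A1 (chr3:48564073-48595267, minus strand), whose promoter is printed above, was at 18.5, 20.1 and 22.0 CPM under PQY23_1 and at 10.5, 12.1 and 11.6 CPM in DMSO. Every PQY23_1 library was above every DMSO library, with a log2 fold change of 0.82 ± 0.09 (SE; 1.77-fold, adjusted p = 0.0042). COL6A1 was at 10.0, 12.5 and 13.8 CPM under PQY23_1, a log2 fold change of 0.70 ± 0.12 from DMSO (SE; 1.63-fold, adjusted p = 0.0234). PQY23_1 replicate 1 gave the lowest COL6A1 value of its group, still above all DMSO libraries. This call was lost without any 1 of DMSO replicates 1, 2 and 3, PQY09 replicate 1 or PQY23_1 replicates 2 and 3, with adjusted p-values up to 0.109.

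COL9A2 and COL16A1 did not pass the test under PQY23_1. COL9A2 was at 48.9, 48.2 and 52.4 CPM, a log2 fold change of 0.29 ± 0.07 from DMSO (SE, adjusted p = 0.0712), and COL16A1 was at 23.2, 23.1 and 24.0 CPM, a log2 fold change of -0.24 ± 0.07 (SE, adjusted p = 0.14). The groups did not overlap in either gene, and DESeq2 called both (adjusted p = 0.0112 and 0.0486, the lowest of 11 settings whose highest were 0.165 and 0.272). COL9A3 was at 140.6, 136 and 139 CPM, a log2 fold change of 0.13 ± 0.06 (SE, adjusted p = 0.351), and its groups did not overlap. COL18A1 had a log2 fold change of -0.05 ± 0.05 (SE), and its groups overlapped. The COL27A1 value was 0.0040 ± 0.0919 (SE), with a sign that turned under other scalings. PQY23_1 replicate 1 was the lowest of its group for COL27A1 (116 CPM, against 139.7 and 149), COL4A5 (22.4 CPM, against 29.5 and 31.7) and COL4A6 (6.54 CPM, against 8.29 and 9.78). Groups did not overlap for 9 of the 25 tested members, beside 22.5% of all genes tested.

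The compounds were set against each other at the matched dose of 50 µM, as 1 pair. COL2A1 was lower under PQY23_1 than under PQY09 by 3.39-fold, and COL16A1 by 1.68-fold, and no collagen gene was called higher. These 2 calls among 25 tested members stand beside 2.22% of all genes tested called, 1.22% higher and 1.0% lower, and beside 3.37% of tested genes with at least 1 FPKM in any group. COL2A1 had a log2 difference of -1.76 ± 0.07 (SE; 95% interval -1.93 to -1.59, adjusted p = 3.9e-05), the lowest p among all 20157 genes tested. COL16A1 had a log2 difference of -0.75 ± 0.07 (SE; interval -0.92 to -0.59, adjusted p = 0.0014), and its 3 PQY23_1 libraries, at 23.1 to 24.0 CPM, lay below its 3 PQY09 libraries, at 36.2 to 42.3 CPM. Groups did not overlap for 9 of the 25 tested members, beside 22.0% of all genes tested.

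For the other chains a difference between the compounds was not called. COL6A1 was nearly level, at 12.2 ± 0.292 CPM under PQY09 and 12.1 ± 1.91 CPM under PQY23_1 (SD, n = 3), and the interval of the log2 difference ran from -0.28 to 0.27. COL7A1 was higher in every PQY23_1 library than in every PQY09 library, with a log2 difference of 0.43 ± 0.09 (SE; interval 0.21 to 0.64, adjusted p = 0.06), and DESeq2 called it (adjusted p = 0.00214, the lowest of 11 settings whose highest was 0.218). COL9A2 had a log2 difference of -0.20 ± 0.07 (SE; interval -0.35 to -0.04, adjusted p = 0.227). COL27A1 had -0.29 ± 0.09 (SE; interval -0.50 to -0.08, adjusted p = 0.174) and COL4A6 -0.44 ± 0.14 (SE; interval -0.76 to -0.11, adjusted p = 0.187). COL18A1 had -0.13 ± 0.05 (SE, interval -0.25 to -0.01, adjusted p = 0.287). The median log2 difference was -0.20 over the 25 tested members, against -0.0089 over all genes tested, and 8 of the 25 were above 0.

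**Figure D3:**
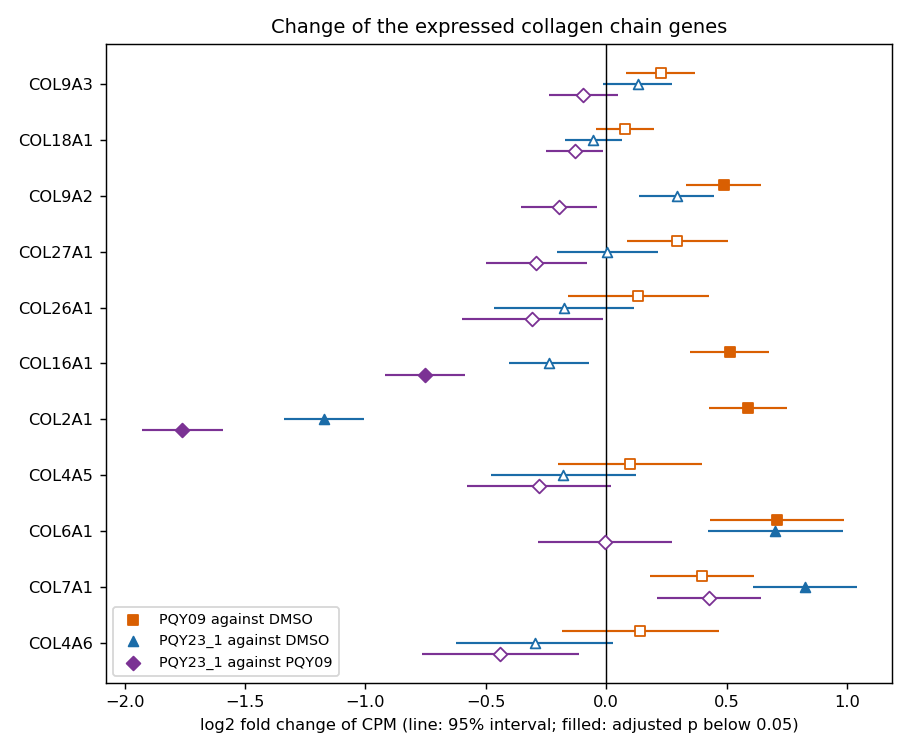
Log2 fold change of CPM for the 11 expressed collagen chain genes in 3 comparisons (squares PQY09 against DMSO, triangles PQY23_1 against DMSO, diamonds PQY23_1 against PQY09; lines are 95% intervals, filled markers have an adjusted p below 0.05). COL2A1 lies at 0.59 under PQY09 and -1.17 under PQY23_1, while COL6A1 lies near 0.7 under either compound and near 0 between them.

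Ratios of COL2A1 with other chains within a library set the PQY23_1 group apart from the other groups. The FPKM ratio of COL2A1 to COL9A2 was 0.317 ± 0.0190 in DMSO, 0.340 ± 0.0169 under PQY09 and 0.114 ± 0.00397 under PQY23_1 (SD, n = 3). DMSO and PQY09 ranges overlapped for this ratio, and the PQY23_1 libraries lay below both. The ratio of COL2A1 to COL9A3 was 0.117 ± 0.00610, 0.151 ± 0.0113 and 0.0472 ± 0.00328 in the same order (SD, n = 3). Here the PQY09 range (0.144 to 0.164) lay above the DMSO range (0.110 to 0.121). The ratio of COL16A1 to COL2A1 was 0.979 ± 0.0350 in DMSO, 0.927 ± 0.0628 under PQY09 and 1.87 ± 0.0875 under PQY23_1 (SD, n = 3). For this ratio the DMSO range (0.950 to 1.02) and the PQY09 range (0.858 to 0.980) overlapped, as for COL2A1 to COL9A2. All collagen genes together took 0.0634% ± 0.00243 of counts in DMSO, 0.0759% ± 0.00163 under PQY09 and 0.0625% ± 0.00313 under PQY23_1 (SD, n = 3).

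None of the 14 tested members below 1 FPKM was called in any comparison. That count is too small to set apart from the 2.22% to 2.85% of all genes called. COL17A1, a transmembrane collagen of hemidesmosomes that was not tested, had counts of 0 in all DMSO libraries, of 8, 7 and 19 under PQY09 and of 15, 6 and 0 under PQY23_1, so that the compound groups overlapped. COL1A1 was at 2.41 ± 0.475 CPM in DMSO, 2.04 ± 0.242 under PQY09 and 1.66 ± 0.197 under PQY23_1 (SD, n = 3), and its PQY23_1 libraries lay below its DMSO libraries (log2 fold change -0.54 ± 0.19, adjusted p = 0.212). COL5A2 was at 1.903 ± 0.179, 1.80 ± 0.110 and 2.34 ± 0.243 CPM in the same order (SD, n = 3). A difference of the size seen for COL2A1 under PQY09 was not detectable at the lowest counts, where standard errors of the log2 fold change under PQY09 were 0.47 for COL8A2 and 1.62 for COL10A1.

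Other genes of the collagen pathway were read against the 2.85%, 2.55% and 2.22% of all genes tested that were called under PQY09, under PQY23_1 and between the compounds. Of 13 tested genes for hydroxylation and glycosylation, COLGALT2, a galactosyltransferase acting on hydroxylysine, fell under PQY09. It was at 43.2, 43.5 and 40.8 CPM in DMSO, at 26.7, 27.1 and 25.8 CPM under PQY09 and at 36.3, 42.8 and 41.4 CPM under PQY23_1, which is a log2 fold change of -0.68 ± 0.08 under PQY09 (SE, adjusted p = 0.00249). The PQY09 libraries stood apart from the other 6, which overlapped. None of the 13 was called under PQY23_1, and COLGALT2 and P3H3, a prolyl 3-hydroxylase family member, were higher under PQY23_1 than under PQY09 (0.60 ± 0.08 and 0.46 ± 0.08, adjusted p = 0.00563 and 0.024). The median log2 fold change of this list was -0.15 under PQY09 and -0.08 under PQY23_1. The P3H3 call was lost without DMSO replicate 2, any PQY09 library or PQY23_1 replicates 1 or 3, with adjusted p-values up to 0.104.

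Of 20 tested genes for folding and secretion, SERPINH1, the collagen chaperone HSP47, fell under both compounds by the test. It was at 187, 175 and 182 CPM in DMSO, at 148, 151 and 146 CPM under PQY09 and at 157, 146 and 147 CPM under PQY23_1. The log2 fold changes were -0.29 ± 0.05 and -0.27 ± 0.05 (SE, adjusted p = 0.024 and 0.0344), and neither group overlapped DMSO. SPARC, a collagen-binding matrix protein, fell under PQY23_1 (-0.32 ± 0.07, adjusted p = 0.0434). The SERPINH1 call under PQY09 was lost without any DMSO or PQY09 library (adjusted p up to 0.104), its call under PQY23_1 in every leave-out but that of PQY23_1 replicate 1 (up to 0.125), and the SPARC call in all 9 (up to 0.141). The list's medians were -0.12 under PQY09 and -0.07 under PQY23_1, and none of its genes was called between the compounds.

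Of 12 tested genes for trimming and crosslinking collagen outside the cell, PCOLCE rose under PQY09 and LOX and TGM2 fell, whereas under PQY23_1 TGM2 rose and LOX fell. PCOLCE, which enhances removal of the C-terminal propeptide, was at 11.9, 11.8 and 10.9 CPM in DMSO, at 32.0, 31.7 and 38.1 CPM under PQY09 and at 12.8, 12.4 and 10.1 CPM under PQY23_1. The PQY09 libraries stood apart from the other 6, with a log2 fold change of 1.56 ± 0.12 from DMSO (SE; 2.94-fold, adjusted p = 0.00036) and of -1.53 ± 0.12 for PQY23_1 against PQY09 (SE, adjusted p = 0.0006).

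LOX, a lysyl oxidase, was at 45.2, 53.5 and 52.2 CPM in DMSO, at 24.0, 21.0 and 21.8 CPM under PQY09 and at 27.4, 33.8 and 30.4 CPM under PQY23_1. Both compound groups lay below DMSO (log2 fold change -1.18 ± 0.10, adjusted p = 0.00076, and -0.72 ± 0.10, adjusted p = 0.0111). The PQY23_1 call was lost without DMSO replicate 2 (adjusted p = 0.0538). TGM2, a transglutaminase that crosslinks matrix proteins, was at 59.9, 54.1 and 53.6 CPM in DMSO, at 39.6, 39.2 and 38.8 CPM under PQY09 and at 73.6, 80.2 and 76.4 CPM under PQY23_1. Its 3 groups did not overlap, with log2 fold changes from DMSO of -0.51 ± 0.06 (adjusted p = 0.00462) and 0.46 ± 0.06 (adjusted p = 0.0102, and 0.0551 without DMSO replicate 2) and of 0.97 ± 0.06 between the compounds (adjusted p = 0.00033). The list's medians were -0.12 under PQY09, -0.02 under PQY23_1 and 0.20 between the compounds.

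Of 10 tested collagen receptors, ITGA10, an integrin subunit that binds type II collagen, fell under PQY09. ITGA10 lay below 1 FPKM in every group (0.365 in DMSO, 0.127 under PQY09 and 0.381 under PQY23_1). It was at 2.83, 2.67 and 2.63 CPM in DMSO, at 0.758, 1.22 and 0.841 CPM under PQY09 and at 2.25, 2.88 and 3.49 CPM under PQY23_1. Only the PQY09 libraries were low, with a log2 fold change of -1.52 ± 0.23 (SE, adjusted p = 0.011, and 0.0538 without PQY09 replicate 3), and ITGA10 was higher under PQY23_1 than under PQY09 (1.61 ± 0.23, adjusted p = 0.00889). ITGA1, a subunit of another collagen-binding integrin, rose under PQY23_1 (0.37 ± 0.07, adjusted p = 0.0241, and up to 0.11 without any DMSO library, PQY09 replicate 1 or PQY23_1 replicates 2 or 3) and was higher there than under PQY09 (0.43 ± 0.07, adjusted p = 0.0111, and up to 0.0564 without PQY09 replicates 1 or 3). The list's medians were -0.12 under PQY09, 0.22 under PQY23_1 and 0.34 between the compounds.

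Of 16 tested genes for degradation and its inhibitors, MMP15, a membrane-bound metalloproteinase, fell under PQY09 (-0.42 ± 0.06, adjusted p = 0.00579). Under PQY23_1 TIMP1, an inhibitor of metalloproteinases, rose (1.41 ± 0.09, 2.65-fold, adjusted p = 0.00035), from 70.7, 65.4 and 68.7 CPM in DMSO to 203, 164 and 176 CPM. TIMP3, another inhibitor, fell under PQY23_1 (-0.38 ± 0.06, adjusted p = 0.0146, and up to 0.0648 without DMSO replicates 2 or 3 or PQY23_1 replicate 3). MMP2, a gelatinase, rose under PQY23_1 (0.62 ± 0.13, adjusted p = 0.0396, lost in all 9 leave-outs, up to 0.151). MMP2 lay below 1 FPKM in every group (0.644 in DMSO, 0.919 under PQY09 and 0.981 under PQY23_1). TIMP1 (1.82 ± 0.09), MMP15 (0.37 ± 0.06) and CTSB, a lysosomal protease (1.07 ± 0.20), were higher under PQY23_1 than under PQY09. The MMP15 call between the compounds was lost without PQY09 replicates 1 or 2 (adjusted p up to 0.0619), and the CTSB call without DMSO replicate 3, PQY09 replicate 1 or any PQY23_1 library (up to 0.0843). The list's medians were -0.04 under PQY09, 0.13 under PQY23_1 and 0.28 between the compounds.

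No gene was called among 14 tested basement membrane partners, a count too small to set apart from the 2.22% to 2.85% of all genes called. Their medians were 0.05 under PQY09, -0.02 under PQY23_1 and -0.0083 between the compounds. NID1, the nidogen that bridges laminin and type IV collagen, was at 330, 336 and 325 CPM in DMSO, at 294, 285 and 282 CPM under PQY09 and at 91.7, 142 and 240.0 CPM under PQY23_1. All PQY23_1 libraries were below DMSO and far apart from each other (log2 fold change -1.06 ± 0.28, adjusted p = 0.0967). NID1 was singled out after its values were seen.

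**Figure D4:**
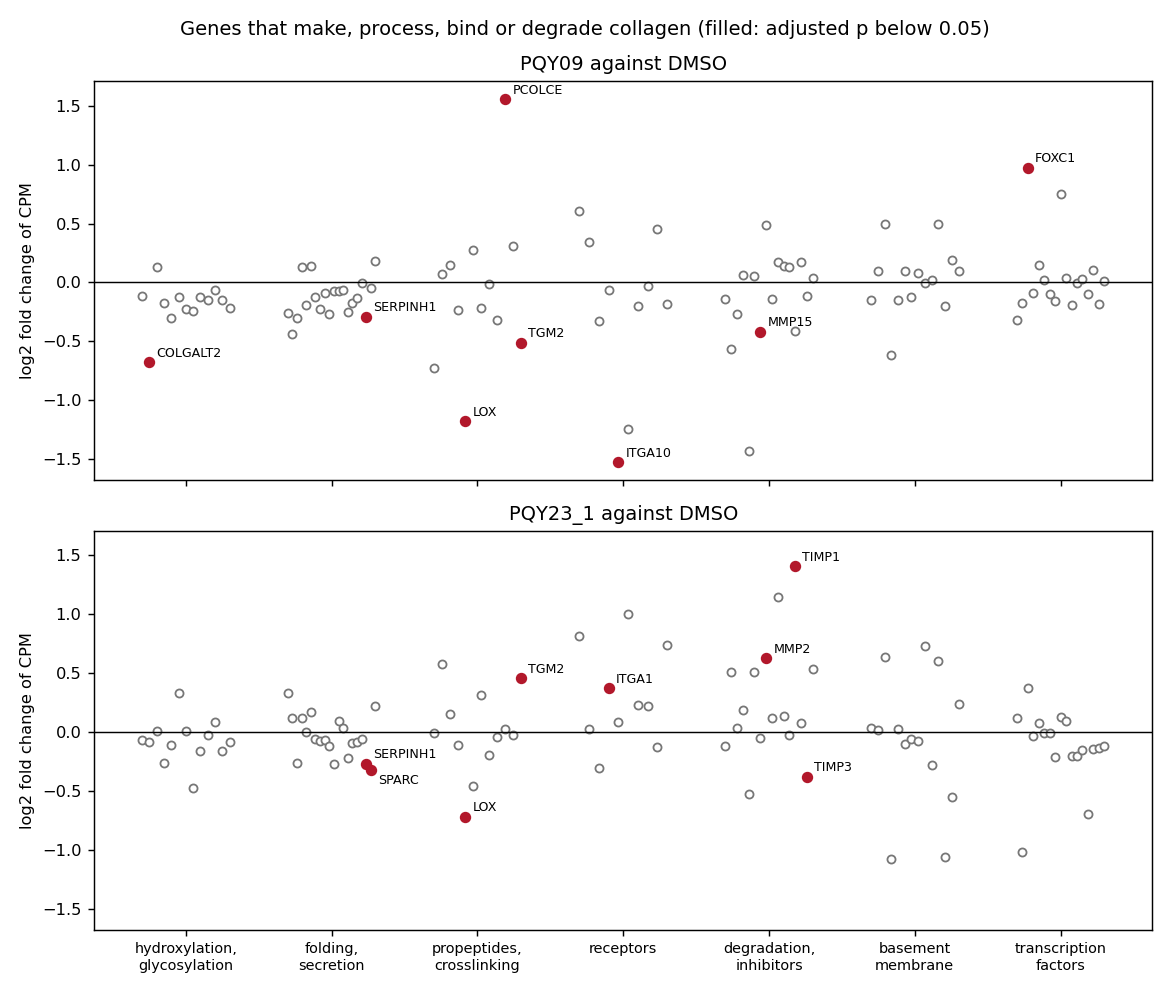
Log2 fold change of CPM for the tested genes that make, fold, process, bind, degrade or regulate collagen, by list, for PQY09 (upper panel) and PQY23_1 (lower panel) against the same DMSO libraries; filled red points have an adjusted p below 0.05. PCOLCE at 1.56 and ITGA10 at -1.52 are the outermost called points under PQY09, and TIMP1 at 1.41 is the outermost under PQY23_1. ITGA10 lay below 1 FPKM in every group.

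Of 17 tested transcription factors known for collagen genes, 1 was called in any comparison, beside 2.85% of all genes called under PQY09. SOX9, which with SOX5 and SOX6 drives COL2A1 in cartilage, was at 156, 168 and 174 CPM in DMSO, at 183, 174 and 181 CPM under PQY09 and at 140.5, 163 and 149 CPM under PQY23_1. The DMSO libraries overlapped both other groups, with log2 fold changes of 0.11 ± 0.07 and -0.14 ± 0.07 (SE) and a difference between the compounds of -0.25 ± 0.07 (SE, adjusted p = 0.12). SOX5 had log2 fold changes of 0.03 ± 0.10 and -0.16 ± 0.10 (SE). SOX6 had -0.10 ± 0.16 under PQY09 and -0.70 ± 0.17 under PQY23_1 (SE, adjusted p = 0.0722), with 3.84 ± 0.269 CPM in DMSO and 2.37 ± 0.379 CPM under PQY23_1 (SD, n = 3). The factor called was FOXC1, a forkhead factor, which rose under PQY09, from 2.59, 3.29 and 2.62 CPM to 5.16, 5.58 and 5.96 CPM (0.97 ± 0.15, adjusted p = 0.0122, and up to 0.0576 without DMSO replicates 1 or 3 or PQY09 replicate 3). The list's medians were -0.0031 under PQY09, -0.12 under PQY23_1 and -0.07 between the compounds.

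Of the marker lists, those for chondrocytes (3 tested) and hepatocytes (8 tested) held called genes in the comparisons with DMSO. Of all genes tested, 2.85% were called under PQY09, 2.55% under PQY23_1 and 2.22% between the compounds. The 7 chondrocyte markers summed to 46.8 to 49.2 FPKM in DMSO, 39.8 to 41.9 under PQY09 and 37.0 to 39.5 under PQY23_1. Both compound groups were below DMSO in this sum, although only 2 of the 7, MATN3 and SNORC, reached 1 FPKM. Of the 3 tested, 1 had a log2 fold change above 0 under PQY09 (median -0.06) and 1 under PQY23_1 (median -0.18). MATN3, a cartilage matrilin, fell under PQY09 (-0.76 ± 0.06, adjusted p = 0.00036) while COL2A1 rose there. SNORC, a cartilage proteoglycan, fell under PQY23_1 (-0.37 ± 0.07, adjusted p = 0.0279, and up to 0.0958 without any DMSO library, PQY09 replicate 1 or PQY23_1 replicates 2 or 3). Among hepatocyte markers TF, the transferrin gene, rose under PQY09 (0.44 ± 0.05, adjusted p = 0.00197) and fell under PQY23_1 (-0.41 ± 0.05, adjusted p = 0.00468), and ALB and FGA rose under PQY09 (0.21 ± 0.04 and 0.30 ± 0.04, adjusted p = 0.0403 and 0.0108). The ALB call was kept in 2 of 9 leave-outs, those of PQY23_1 replicates 1 and 2 (adjusted p up to 0.145), and the FGA call was lost without DMSO replicate 2 or PQY09 replicates 1 or 2 (up to 0.0605). Between the compounds ALB, APOA1, FGA and TF were lower under PQY23_1, MATN3 was higher, and of the endothelial markers CDH5, at 0.669 CPM against 2.19 CPM, was lower. Of these calls those of TF and MATN3 were kept in all 9 leave-outs, that of FGA in 8 (lost without PQY09 replicate 1), that of APOA1 in 6 (lost without PQY09 replicates 1 or 3 or PQY23_1 replicate 3), that of CDH5 in 2 (those of PQY23_1 replicates 2 and 3) and that of ALB in 1 (that of PQY23_1 replicate 1). No tested marker of stellate cells and fibroblasts (4 tested), fetal liver (2) or leukocytes (2) was called in any comparison. These lists are too short for the absence of calls to be set apart from the shares of all genes called. The 8 hepatocyte markers summed to 5471 to 5623 FPKM in DMSO, 5675 to 5908 under PQY09 and 4859 to 5171 under PQY23_1. The groups did not overlap in this sum, to which the most abundant genes add most. Of the 8 markers, 5 had a log2 fold change above 0 under PQY09 (median 0.14) and 2 under PQY23_1 (median -0.03). The 3 leukocyte markers summed to 11.5 to 14.5 FPKM in DMSO, 12.0 to 15.3 under PQY09 and 16.8 to 21.2 under PQY23_1, which was above both. Endothelial markers summed to at most 0.456 FPKM in any library, with PQY09 (0.364 to 0.456) above DMSO (0.23 to 0.29) and PQY23_1 (0.194 to 0.274). The 2 fetal liver markers summed to 1397 to 1646 FPKM over the 9 libraries. Whether these marker genes have a part in the collagen differences was not tested.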

How the data were processed

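RNA of 9 HepG2 libraries was sequenced by the authors. The submitters' processing notes name cutadapt 1.9, HISAT2 2.0.4, StringTie 1.3.4d, edgeR, DESeq2 and hg38 without roles. The deposited table holds estimated counts (expected counts, as whole numbers that pile up at 4) and the authors' FPKM, which are 1e-04 where the count is 0. How many counts stand for 1 fragment is not given, and floors take 4. Floors cover counting error only, whereas intervals come from the fit and include the spread between libraries.

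Counts were used as deposited, rounded to whole numbers. Genes passed filterByExpr (minimum count 10, minimum total 15), libraries were scaled by TMM, and edgeR 4.0.16 (R 4.3.3) fitted all 9 libraries with a mean per group and 6 residual degrees of freedom. P-values were adjusted by Benjamini-Hochberg over 20157 genes, with calls below 0.05. An SE is the log2 fold change over the square root of F. Expressed means a mean of at least 1 FPKM in any group. Alternatives used DESeq2 1.42.0, limma 3.58.1 on log2(FPKM or TPM + pseudocount), other scalings, filters and samples, the counts divided by 4, and each library left out.

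Named genes are collagen genes expressed or called in any comparison, COL2A1, called members of the other lists and SOX5, SOX6 and SOX9. NID1 and the collagen genes below 1 FPKM were named after their values were seen. The members and lists were chosen with earlier results of these data known.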

Additional observations from a re-analysis of the deposited data

How the results depend on the processing

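COL2A1, COL16A1, COL9A2 and COL7A1 kept each of their calls in all 9 leave-outs and under all 11 other settings. COL6A1 lost its call from DMSO under the replicate block (adjusted p = 0.0619 under PQY09 and 0.073 under PQY23_1), and under PQY23_1 also in limma without a filter (0.0687) and with only the 2 groups compared (0.0908). Of 651 values of the 11 expressed genes, 603 kept direction and side of the threshold, 13 newly passed it, 16 no longer passed it and 19 turned sign.

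The values that turned sign were small. COL27A1 under PQY23_1 (0.0040) became -0.0025 with RLE scaling and in DESeq2, -0.0285 without TMM, -0.0062 without a filter, -0.0214 and -0.0244 in limma with a pseudocount of 1 and 0.1, -0.0214 in limma without a filter, -0.13 on TPM, -0.0040 on counts divided by 4 and -0.00053 with only the 2 groups compared, and ran from -0.0712 to 0.10 over the leave-outs. COL9A3 under PQY23_1 became -0.0013 on TPM. COL6A1 between the compounds ran from -0.11 to 0.112 over the leave-outs. TPM, which divides by the summed FPKM, put the median of all genes at -0.112 under PQY23_1 and -0.144 between the compounds, against 0.0074 and -0.0089.

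DESeq2 called 1433 genes under PQY09, 1431 under PQY23_1 and 1260 between the compounds (main counts 574, 514 and 448), and 5 collagen genes each under PQY09 and PQY23_1. The additional gene under PQY09 was COL7A1 in DESeq2 (adjusted p = 0.00754) and COL9A3 in limma with a pseudocount of 1 or 0.1 (0.0412 and 0.0418). On TPM 943 genes and 5 collagen genes were called between the compounds. With only the 2 groups compared 224 were called under PQY23_1 and 295 between the compounds, from fewer samples. Leaving out 1 library gave 235 to 628 calls under PQY09, 138 to 371 under PQY23_1 and 222 to 397 between the compounds, the lowest without DMSO replicate 2 (235 and 138) and PQY09 replicate 1 (222). Collagen calls then numbered 3 to 5, 2 to 3 and 2. A threshold of 2 FPKM left 8 expressed genes, and 0.5 FPKM left 11.

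Some calls of other listed genes were lost under other settings. Under PQY09 ALB and SERPINH1 lost theirs on TPM and under the block, and ALB also without a filter in edgeR and limma. Under PQY23_1 SERPINH1, SPARC and MMP2 lost theirs without a filter, SERPINH1, SPARC, MMP2, ITGA1 and SNORC with only the 2 groups compared, these and TIMP3 under the block, ITGA1 and MMP2 in limma without a filter, and ITGA1 and TGM2 on TPM. Between the compounds ALB and CDH5 lost theirs without a filter and under the block, ALB, CDH5, APOA1, CTSB and P3H3 with only the 2 groups compared, ALB, CTSB and ITGA1 in limma without a filter, and ITGA1 and MMP15 on TPM.

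The libraries share only replicate numbers. With the number as a block, which uses up residual degrees of freedom, 342, 237 and 267 genes were called. Deviations from the group means correlated by -0.036 to 0.026 in 9 pairs of libraries with the same number and by -0.0435 to 0.0385 in 18 with different numbers. At the lowest counts tested, as of COL8A2 and COL10A1, wide standard errors limited detection, and 8 members had no count. The cause of the other shifts was not tested.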
